A study of Rattus norvegicus with 13 samples.

Results

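The matrix metalloproteinases and their inhibitors were followed here as 10 genes: the proteases Mmp2, Mmp3, Mmp9, Mmp12, Mmp13 and Mmp14, the related protease Adamts1, and the tissue inhibitors Timp1, Timp2 and Timp3. They were found by gene symbol, and all 10 were measured, by 17 of the 20826 probe sets that name a single gene, out of 14217 genes in all. Where a gene had several probe sets, the one with the highest mean over the 13 arrays stood for it.

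Matrix metalloproteinases are zinc-dependent enzymes that cut collagens, gelatin, elastin and other matrix proteins, and most are secreted as inactive precursors that must be cleaved to work. Tissue inhibitors of metalloproteinases bind the active enzymes and block them. In bile duct cancer, which grows within a dense collagen stroma, these enzymes are studied for their part in invasion and in the remodelling of that stroma by fibroblasts.

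RNA was measured on single-colour Affymetrix arrays from rat cholangiocarcinoma, a bile duct cancer, and from lines derived from it, all of Fischer 344 background. The 4 tumours were intrahepatic cholangiocarcinomas that arose in young adult male rats from BDEsp cells, which are bile duct epithelial cells transformed spontaneously in culture, and the tissue still held the host's own cells. A single array was labelled as tumour-derived epithelial cells in co-culture with the fibroblastic cells, and 1 as the fibroblastic cells in that co-culture. The epithelial line is the cancer cell line, clone H10 (3 arrays when grown alone), and the fibroblastic line, which makes alpha smooth muscle actin, is clone E4 (4 arrays alone). Each line is thus 1 clone, and both were grown in rat tail type I collagen gel, with fibroblastic cells plated at various densities in co-culture. The labels do not say whether the arrays of a line came from separate cultures, so p-values measure the spread between these arrays, which may be technical, and the number of arrays limits every value.

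Values are log2 expression as deposited, and a difference of 1 is a 2-fold change. No detection calls were used here. Levels such as those of Mmp2 in the epithelial line (5.09 to 5.28), and of Mmp12 (4.36 to 5.06) and Mmp3 (3.44 to 5.75) in both lines, lay near or below that of the hepatocyte gene Alb in the lines (4.78 to 5.35), so differences from them are given as measured, with no fold, and may understate the change. Mmp9 lay in this low range on every array, the tumours included, at 4.52 to 4.87 in the tumours and 3.86 to 5.00 in the lines. Differences were tested with limma across all genes, and a gene is called where its p-value, after Benjamini-Hochberg adjustment over 14217 genes, is under 0.05. Each co-culture array was assumed to vary like the replicated groups, since it has no replicate of its own. The groups of a fit share an estimate of the spread. Leaving out an array of another group can thus change a p-value but not the difference.

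The cell type markers went against the labels of both co-culture arrays. Krt19, a biliary keratin, stood at 13.49 on the array labelled epithelial and 13.21 on the array labelled fibroblastic, against 13.90 to 14.24 in the epithelial line alone and 4.01 to 4.29 in the fibroblastic line alone. Col1a2, a chain of type I collagen, stood at 13.37 and 13.60 on the same arrays, against 3.70 to 4.63 in the epithelial line and, in the fibroblastic line, 14.17 to 14.36. Each co-culture array therefore held high levels of a marker of each cell type. They are called below the array labelled epithelial and the array labelled fibroblastic. Not all fibroblastic markers were as high. Acta2, the gene of alpha smooth muscle actin, stood at 7.56 on the array labelled epithelial, within the epithelial range of 6.37 to 7.90. On the array labelled fibroblastic it stood at 9.06, below the fibroblastic range of 9.29 to 12.13. The mean of the 12 fibroblastic markers was 9.87 and 10.13 on these arrays. It was 11.40 to 11.63 in the fibroblastic line and 5.22 to 5.37 in the epithelial line. Among the tumours, tumour 2 stood apart with the hepatocyte gene Alb at 7.50, against 13.94 to 14.51 in the other tumours and 4.78 to 5.35 in the lines. Fibroblastic arrays 2 and 4 differed from arrays 1 and 3 in the log2 gap between the 3' and 5' actin control probe sets, a measure of RNA quality, which was 2.65 and 2.01 against 1.72 and 1.04. This gap also differed between groups, at 0.606 to 0.752 in the tumours and 0.962 and 0.848 on the arrays labelled epithelial and fibroblastic, against 0.856 to 1.469 in the epithelial line.

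The promoters of 4 genes are shown because both co-culture arrays lay above all 7 arrays of the lines grown alone for these 4, as described below. RefSeq windows of 300 bases that span the start of the gene (build GRCr8) were given for 7 of the 10 genes, and were searched for TGANTCA, the binding element of the transcription factor AP-1, which reads the same on both strands. Mmp13 (chr8:12782579-12782878), Mmp12 (chr8:12866402-12866701) and Mmp3 (chr8:12925031-12925330) lie on the plus strand in the metalloproteinase cluster of rat chromosome 8, and Timp3 (chr7:19459509-19459808) lies on the minus strand. Capitals mark the element.
Mmp3: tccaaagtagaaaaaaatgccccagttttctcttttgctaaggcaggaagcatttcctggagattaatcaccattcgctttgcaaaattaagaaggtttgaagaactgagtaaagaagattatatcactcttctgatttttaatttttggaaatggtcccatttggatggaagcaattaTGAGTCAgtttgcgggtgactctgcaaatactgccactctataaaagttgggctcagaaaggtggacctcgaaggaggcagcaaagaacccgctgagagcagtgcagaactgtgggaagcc
Mmp12: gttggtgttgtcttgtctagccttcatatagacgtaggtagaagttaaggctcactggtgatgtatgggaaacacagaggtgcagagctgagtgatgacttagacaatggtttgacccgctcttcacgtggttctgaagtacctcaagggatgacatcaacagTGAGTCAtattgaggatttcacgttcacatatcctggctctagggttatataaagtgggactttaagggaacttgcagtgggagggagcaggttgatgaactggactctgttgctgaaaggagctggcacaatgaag
Mmp13: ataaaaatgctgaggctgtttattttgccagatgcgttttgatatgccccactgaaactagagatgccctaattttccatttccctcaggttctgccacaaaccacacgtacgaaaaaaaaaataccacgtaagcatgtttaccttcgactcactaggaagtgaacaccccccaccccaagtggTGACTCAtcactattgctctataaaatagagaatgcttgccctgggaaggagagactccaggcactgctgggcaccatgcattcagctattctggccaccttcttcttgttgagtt
Timp3: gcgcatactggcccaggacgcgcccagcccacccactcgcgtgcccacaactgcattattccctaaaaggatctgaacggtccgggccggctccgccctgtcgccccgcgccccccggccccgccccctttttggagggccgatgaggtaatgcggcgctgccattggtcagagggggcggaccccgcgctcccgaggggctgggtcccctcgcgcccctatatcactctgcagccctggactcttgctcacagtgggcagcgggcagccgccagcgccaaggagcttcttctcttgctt

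The element began 71 bases before the start of Mmp3 and 87 before that of Mmp12, as TGAGTCA in both, and 66 before that of Mmp13, as TGACTCA. It was found in 3 of the 7 windows and in 7.33% of the 33469 RefSeq windows of the same length. The Timp3 window held no match, nor did those of Timp1, Timp2 and Adamts1.

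The lines grown alone were compared to see which cell type carries each protease or inhibitor. Of the 10 genes, 7 were called lower in the epithelial line and none higher, against 16.6% and 20.9% of all genes, and at an unadjusted p under 0.05 limma still gave 0 higher. The 7 were Mmp2, Mmp14, Mmp9, Adamts1 and all 3 inhibitors. The arrays of the lines did not overlap for 6 of the 10, against 45.3% of all genes. The median difference over the 10 genes was -1.69, against 0.11 over all genes.

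Mmp2, gelatinase A, which degrades denatured collagen and type IV collagen, had values of 5.09, 5.28 and 5.11 in the epithelial line, against 11.93, 13.51, 11.82 and 13.38 in the fibroblastic line. The groups did not overlap, and the 3 epithelial arrays were close to one another while the fibroblastic arrays fell into a lower and a higher pair. The difference was -7.50 (SE 0.45, limma adjusted p = 6.75e-06). Mmp14, the membrane-bound metalloproteinase that activates the Mmp2 precursor, had values of 10.45, 10.46 and 10.81 in the epithelial line, against 11.76, 13.21, 12.25 and 13.03 in the fibroblastic line. These groups did not overlap either, and arrays 2 and 4 of the fibroblastic line were again the higher ones. The difference was -1.99 (SE 0.35, adjusted p = 0.0029). The further Mmp14 probe set was not called, with a difference of -0.84 (limma adjusted p = 0.132). On that probe set the lines overlapped, with epithelial array 2 at 8.80 and fibroblastic array 1 at 8.42. The higher pair of fibroblastic arrays was the pair with the larger gap in the actin control probe sets. The GAPDH gap did not separate the pairs, at 0.151 and -0.038 on arrays 1 and 3 and 0.27 and 0.146 on arrays 2 and 4. Among fibroblastic markers, Dcn was also higher on arrays 2 and 4 (6.84 and 6.53 against 4.34 and 4.26). Acta2 was lower there (9.29 and 10.29 against 12.13 and 12.04), and Postn ran from 13.99 to 14.10 in this line. The part of RNA quality, or of another difference between the pairs, in the spread of Mmp2 and Mmp14 was not tested. Without fibroblastic arrays 2 and 4 the difference was -6.72 for Mmp2 and -1.43 for Mmp14, and both were still called.

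Mmp9, gelatinase B, gave low values in both lines, with 4.14, 4.29 and 3.86 in the epithelial line and 4.25, 4.88, 4.92 and 5.00 in the fibroblastic line. Fibroblastic array 1 lay below epithelial array 2, so the groups overlapped. The difference was -0.67 (SE 0.22, adjusted p = 0.0429). The call was lost on leaving out any array but fibroblastic array 1, with adjusted p-values of 0.0586 (epithelial array 2) to 0.137 (epithelial array 3). The further Mmp9 probe set was not called between the lines, with a difference of -0.15 (limma adjusted p = 0.501). Adamts1, a secreted protease that cuts the proteoglycans aggrecan and versican, had values of 3.92, 4.59 and 5.50 in the epithelial line, against 11.63, 10.43, 11.05 and 11.09 in the fibroblastic line. The lowest fibroblastic array was far above the highest epithelial array. The difference was -6.38 (SE 0.40, adjusted p = 8.98e-06).

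Among the inhibitors, Timp1, which binds most secreted metalloproteinases and the precursor of Mmp9, had values of 8.90, 9.16 and 8.90 in the epithelial line, against 12.80, 11.89, 12.58 and 11.88 in the fibroblastic line. The groups were apart, and here fibroblastic arrays 2 and 4 were the lower pair. The difference was -3.29 (SE 0.26, adjusted p = 3.32e-05). Timp3, which is bound to the matrix and also blocks Adam and Adamts proteases, had values of 4.68, 4.11 and 5.42 in the epithelial line, against 9.80, 10.56, 9.69 and 10.13 in the fibroblastic line. The difference was -5.31 (SE 0.33, adjusted p = 9.39e-06), and no array of one line came near the other. Timp2, which blocks active enzymes and also bridges Mmp14 to the Mmp2 precursor during its activation, was the inhibitor with the smallest difference, -1.38 (SE 0.21, adjusted p = 0.0015). Its values were 12.48, 12.26 and 11.61 in the epithelial line, against 13.61, 13.47, 13.49 and 13.43 in the fibroblastic line, again without overlap.

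Mmp3, Mmp12 and Mmp13 were not called between the lines. Mmp3, stromelysin-1, which cuts proteoglycans and activates other metalloproteinases, had values of 4.18, 5.07 and 4.24 in the epithelial line and 3.44, 4.02, 5.75 and 3.75 in the fibroblastic line. The difference was 0.26 (95% confidence interval -0.98 to 1.49, adjusted p = 0.741). Mmp12, the elastin-cutting enzyme known as macrophage metalloelastase, had values of 5.06, 4.78 and 4.68 in the epithelial line and 4.45, 4.36, 4.72 and 5.03 in the fibroblastic line, which overlapped. Its difference was 0.20 (95% confidence interval -0.26 to 0.66, adjusted p = 0.477). Mmp13, collagenase-3, which cuts fibrillar collagen, had values of 4.88, 9.49 and 5.96 in the epithelial line and 4.43, 6.62, 5.06 and 6.25 in the fibroblastic line. Epithelial array 2 stood far above the other arrays of both lines for Mmp13. The difference of 1.19 had a 95% confidence interval of -1.24 to 3.61 (adjusted p = 0.417), and without that array it was -0.17 (adjusted p = 0.871).

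**Figure D1:**
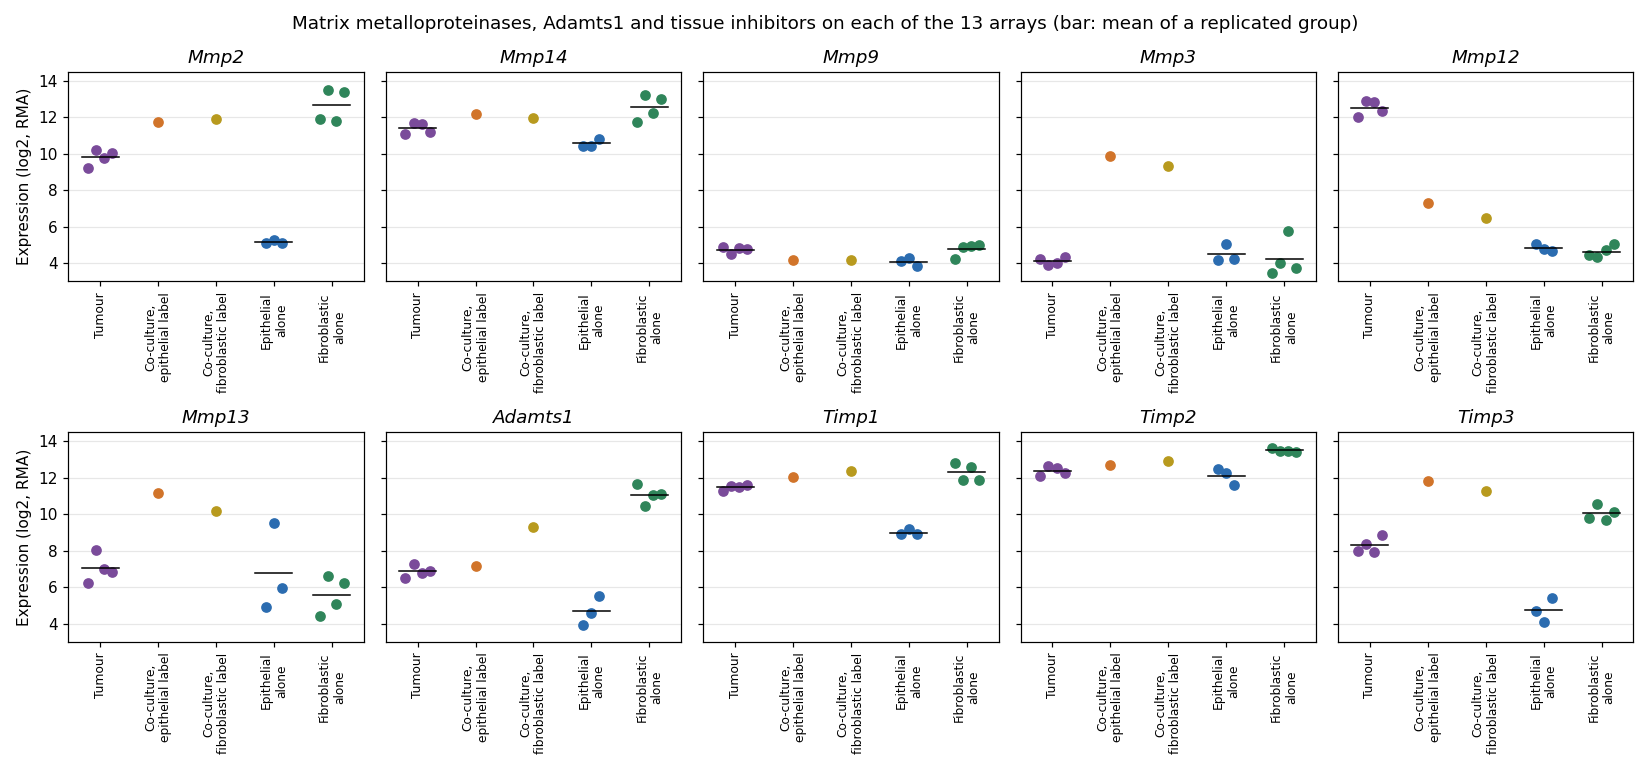
Expression (log2, RMA) of the 10 genes on each of the 13 arrays, with 1 point per array and a bar at the mean of each replicated group. Tumours lie far above the lines for Mmp12 only, and both co-culture points lie above all points of the lines for Mmp3, Mmp12, Mmp13 and Timp3.

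The plot of each array shows the levels behind these comparisons. Order within a gene differed: for Mmp2, Mmp14, Timp1, Timp3 and Adamts1 the tumours lay between the lines, while for Mmp12 they lay above both. For Mmp3 and Mmp9 the tumour arrays lay within the span of the lines.

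The tumours were compared with each line to see how whole tumour tissue differs from its cancer cells and from its fibroblastic cells in culture. Against the epithelial line, 7 of the 10 genes were called higher and none lower, where 18.9% of all genes were called higher and 33.2% lower, and 0 were lower at an unadjusted limma p under 0.05. Against the fibroblastic line, 1 gene, Mmp12, was called higher and 6 were called lower, where the shares of all genes were 27.4% and 33.5%. Tumour arrays did not overlap those of the epithelial line for 7 of the 10 genes (58.3% of all genes), nor those of the fibroblastic line for 7 (58.2%). The actin gap moved with these comparisons, since every tumour (0.606 to 0.752) lay below every array of both lines (0.856 to 2.648). By the GAPDH gap every tumour (-0.084 to -0.005) instead lay above every epithelial array (-0.142 to -0.096). The tumours overlapped the fibroblastic line (-0.038 to 0.27) by that control. The part of RNA quality in the differences was not tested. In tissue, fewer cells of a type and less RNA per cell cannot be told apart. The median difference over the 10 genes was 1.51 against the epithelial line and -0.97 against the fibroblastic line, beside -0.17 and -0.07 over all genes. Centring each array on its median over the genes left 7 of the 10 called in each comparison. For all genes it changed the split from the epithelial line, which was 2685 higher and 4722 lower as deposited, and 3751 higher and 3431 lower when centred. From the fibroblastic line the split was 3888 higher and 4764 lower as deposited, and 5095 higher and 3821 lower when centred.

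Mmp12 was the member with the largest difference in both comparisons. Its values were 12.04, 12.89, 12.87 and 12.35 in the tumours, against 4.68 to 5.06 in the epithelial line and, in the fibroblastic line, 4.36 to 5.03. The tumours were 7.70 above the epithelial line (SE 0.24, adjusted p = 5.65e-09) and 7.90 above the fibroblastic line (SE 0.22, adjusted p = 1.92e-09). Of the 10 genes it alone had all tumours above all 7 line arrays, a position shared by 11.6% of all genes, and it alone was called above both lines, as were 12.0% of all genes. Macrophage markers moved with it: all 13 measured were called higher in the tumours than in each line. Their mean was 9.96 to 10.31 in the tumours, against 5.25 to 5.58 in the epithelial line and, in the fibroblastic line, 5.09 to 5.48. The macrophage scavenger receptor Cd68 stood at 10.17 to 10.76 in the tumours, against 5.86 to 6.11 in the epithelial line and, in the fibroblastic line, 4.85 to 5.76. The part of macrophages in the Mmp12 level was not tested. Tumour 2, in which the mean of the 9 hepatocyte markers was 5.67 against 11.98 to 13.60 in the other tumours, had Mmp12 at 12.89, the highest of the 4.

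Lying between the lines were 5 genes, called higher in the tumours against the epithelial line and lower than in the fibroblastic line: Mmp2, Mmp14, Timp1, Timp3 and Adamts1. Of all genes, 3.78% had this position. Mmp2 had values of 9.22, 10.24, 9.75 and 10.06 in the tumours, apart from both lines. It was 4.66 above the epithelial line (SE 0.42, adjusted p = 1.63e-05) and differed by -2.84 from the fibroblastic line (SE 0.39, adjusted p = 0.000123). Of the 12 fibroblastic markers, 12 were called higher than in the epithelial line, and 9 lower and 2 higher than in the fibroblastic line. Their mean was 10.98 to 11.39 in the tumours, against 5.22 to 5.37 in the epithelial line and, in the fibroblastic line, 11.40 to 11.63, and their part in these 5 genes was not tested.

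Timp3 had values of 7.96, 8.38, 7.93 and 8.87 in the tumours, all of them apart from both lines. It was 3.55 above the epithelial line (SE 0.34, adjusted p = 2.20e-05), with a difference of -1.76 from the fibroblastic line (SE 0.31, adjusted p = 0.000676). Timp1 was uniform across the tumours at 11.28, 11.52, 11.51 and 11.59. Its difference was 2.48 from the epithelial line (SE 0.23, adjusted p = 1.59e-05) and -0.81 from the fibroblastic line (SE 0.21, adjusted p = 0.0064). Adamts1 had values of 6.48, 7.29, 6.78 and 6.88 in the tumours, nearer to the epithelial than to the fibroblastic line. It was 2.19 above the epithelial line (SE 0.37, adjusted p = 0.00076) and 18.3-fold below the fibroblastic line (difference -4.19, SE 0.34, adjusted p = 2.61e-06).

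Mmp14 had values of 11.07, 11.68, 11.66 and 11.22 in the tumours, all above the epithelial line and below the lowest fibroblastic array at 11.76. Its difference from the epithelial line was 0.84 (SE 0.32, adjusted p = 0.0498), a call at the edge of the threshold. It was lost on leaving out any single tumour or epithelial array or fibroblastic array 3, with adjusted p-values from 0.0506 (tumour 1) to 0.129 (epithelial array 1). From the fibroblastic line the difference was -1.15 (SE 0.30, adjusted p = 0.00694). Without fibroblastic arrays 2 and 4 it was -0.59 (adjusted p = 0.0559), and without tumours 1 and 4 it was -0.89 (adjusted p = 0.0805). By the further Mmp14 probe set neither comparison was called. Its difference was 0.17 from the epithelial line (limma adjusted p = 0.702) and -0.67 from the fibroblastic line (adjusted p = 0.0888).

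Timp2 had values of 12.08, 12.65, 12.53 and 12.24 in the tumours, which overlapped the epithelial line and lay below every fibroblastic array. By its main probe set it was called against the fibroblastic line, with a difference of -1.13 (SE 0.19, adjusted p = 0.00052). From the epithelial line it differed by 0.26 (95% confidence interval -0.20 to 0.71, adjusted p = 0.317). Both calls depended on the probe set: with the mean of the Timp2 probe sets the difference was -0.20 from the fibroblastic line (adjusted p = 0.292, not called) and 1.20 from the epithelial line (adjusted p = 0.000283, called).

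Mmp9 had values of 4.87, 4.52, 4.82 and 4.76 in the tumours, 0.64 above the epithelial line (SE 0.19, adjusted p = 0.0165), while its difference from the fibroblastic line was -0.02 (95% confidence interval -0.41 to 0.37, adjusted p = 0.92). The call against the epithelial line was lost without epithelial array 3 (adjusted p = 0.0646), and after a further quantile normalization the difference was 0.41 (adjusted p = 0.124). By the further Mmp9 probe set the difference from the epithelial line was 0.11 (limma adjusted p = 0.512), not called. Mmp9 is also known as a neutrophil product. Of the 5 neutrophil markers measured, 3 were called higher in the tumours against the epithelial line and 5 higher than in the fibroblastic line, and their part in the Mmp9 level was not tested.

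Mmp3 and Mmp13 were called against neither line. Mmp3 had values of 4.23, 3.93, 4.01 and 4.37 in the tumours, with a difference of -0.36 from the epithelial line (95% confidence interval -1.40 to 0.67, adjusted p = 0.537) and -0.11 from the fibroblastic line (95% confidence interval -1.06 to 0.85, adjusted p = 0.843). Mmp13 had values of 6.22, 8.05, 6.97 and 6.85 in the tumours, highest in tumour 2. Its difference was 0.25 from the epithelial line (95% confidence interval -1.87 to 2.36, adjusted p = 0.844) and 1.44 from the fibroblastic line (adjusted p = 0.182). Without epithelial array 2, the difference from the fibroblastic line had an adjusted p of 0.0431. That array is no part of this comparison and entered only through the shared spread.

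**Figure D2:**
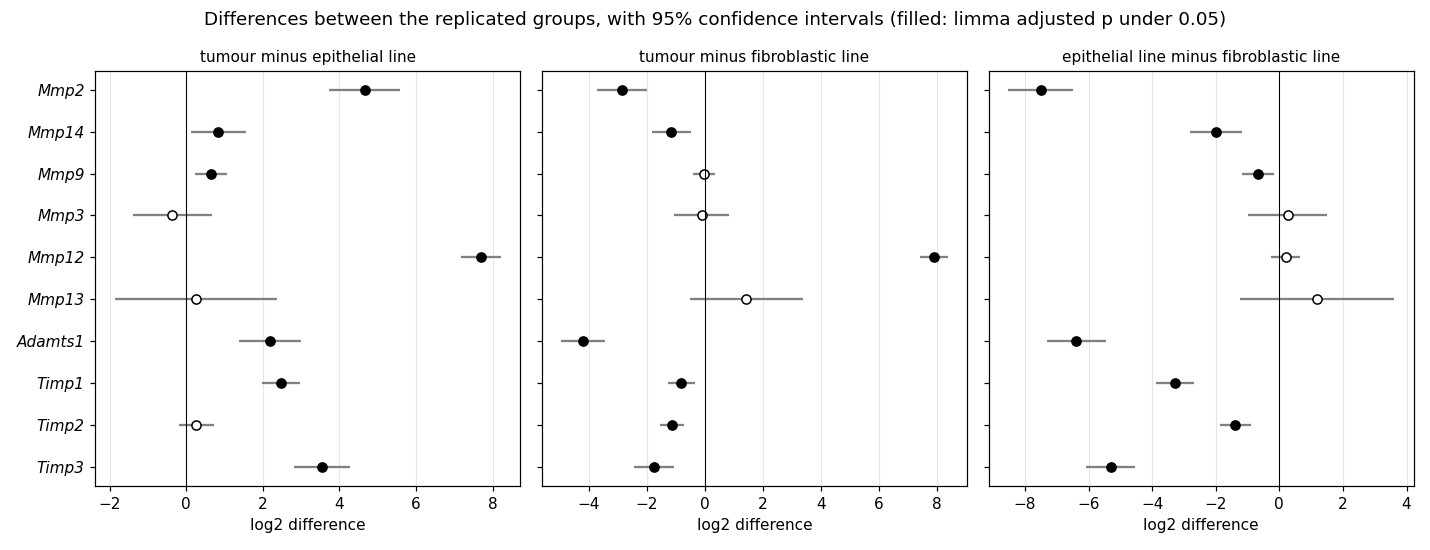
Log2 differences of the 10 genes for tumour minus epithelial line, tumour minus fibroblastic line and epithelial minus fibroblastic line, with 95% confidence intervals and filled points for limma adjusted p under 0.05. Mmp12 stands at 7.70 and 7.90 in the tumour panels and at 0.20 between the lines.

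The plot of differences sets the 3 comparisons side by side. They share arrays, so their values are not independent of each other.

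The co-culture arrays were compared with the lines grown alone to see what changes when the cell types grow together. Against the epithelial line alone, 6 of the 10 genes were called higher on the array labelled epithelial and none lower, where 4.87% and 2.37% of all genes were, and 8 were higher and 0 lower at an unadjusted limma p under 0.05. Against the fibroblastic line alone, 2 of the 10, Mmp3 and Mmp12, were called higher on the array labelled fibroblastic and none lower, where the shares were 4.78% and 3.63%, and 4 were higher and 1 lower at an unadjusted p under 0.05. The median difference over the 10 genes was 2.75 for the array labelled epithelial and -0.24 for the array labelled fibroblastic, beside -0.09 and 0.03 over all genes. Since both arrays held markers of both cell types, each was also set against the other line, a comparison chosen after the data were seen. Against the fibroblastic line, 2 of the 10 were called higher and 1 lower on the array labelled epithelial (5.59% and 5.38% of all genes). Against the epithelial line, 6 were called higher and none lower on the array labelled fibroblastic (5.44% and 2.2% of all genes), with 8 and 0 at an unadjusted limma p under 0.05.

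Both co-culture arrays lay above all 7 arrays of the lines alone for 4 of the 10 genes, Mmp3, Mmp12, Mmp13 and Timp3, a position held by 5.8% of all genes. For Mmp3 and Mmp12 the gap to the highest line array was at least 1 on both, which held for 0.71% of all genes. Mmp3 and Mmp12 were also called above both lines on both arrays, as were 0.661% of all genes.

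Mmp3 stood at 9.88 on the array labelled epithelial and 9.35 on the array labelled fibroblastic, against 3.44 to 5.75 over the 7 arrays of the lines alone. The co-culture arrays lay 4.13 and 3.60 above the highest of those 7, which was fibroblastic array 3. The array labelled epithelial was 5.38 above the epithelial line alone (SE 0.81, adjusted p = 0.00633) and 5.64 above the fibroblastic line alone (adjusted p = 0.00345). The array labelled fibroblastic was 5.11 above the fibroblastic line alone (SE 0.78, adjusted p = 0.00635) and 4.86 above the epithelial line alone (adjusted p = 0.00916). These calls held on leaving out each array in turn.

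Mmp12 stood at 7.31 on the array labelled epithelial and 6.46 on the array labelled fibroblastic, against 4.36 to 5.06 over the lines alone. The gaps to the highest line array were 2.25 and 1.40. The array labelled epithelial was 2.47 above the epithelial line (SE 0.30, adjusted p = 0.00209), and the array labelled fibroblastic was 1.82 above the fibroblastic line (SE 0.29, adjusted p = 0.00782). Of the 13 macrophage markers, limma called 0 on the array labelled epithelial and 1, Cd68, on the array labelled fibroblastic, each against its own line, and at an unadjusted p under 0.05 the counts were again 0 and 1. Their mean was 5.68 on the array labelled epithelial and 5.51 on the array labelled fibroblastic, against 5.09 to 5.58 over the lines alone. Cd68 stood at 6.74 on the array labelled epithelial and 6.67 on the array labelled fibroblastic, above all 7 arrays of the lines alone (4.85 to 6.11), and was 1.38 above the fibroblastic line on the array labelled fibroblastic (adjusted p = 0.0474). Cd14, a receptor for bacterial lipopolysaccharide, stood at 11.49 and 10.58 on the same arrays, against 8.57, 10.41 and 11.34 in the epithelial line and, in the fibroblastic line, 8.34 to 9.09, and it was not called on either array against its own line (adjusted p = 0.417 and 0.252). The macrophage receptor Csf1r stood at 4.78 and 4.74 on the co-culture arrays, against 3.92 to 4.86 over the lines. The complement gene C1qa stood at 5.07 and 5.19, against 4.67 to 5.76. The part of macrophages in these Mmp12 values was not tested.

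Mmp13 stood at 11.17 on the array labelled epithelial and 10.16 on the array labelled fibroblastic, against 4.43 to 9.49 over the lines alone. Both arrays lay above epithelial array 2, the highest of the lines, by 1.69 and 0.67. The differences were 4.40 (SE 1.59, adjusted p = 0.146) from the epithelial line and 4.57 (SE 1.54, adjusted p = 0.129) from the fibroblastic line, each for the array of that label, and neither was called. Both were called without epithelial array 2, at 5.75 (adjusted p = 0.0168) and 4.57 (adjusted p = 0.0225). The second comparison holds no epithelial array, so its difference stayed the same and that array entered only through the shared spread.

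Timp3 stood at 11.80 on the array labelled epithelial and 11.27 on the array labelled fibroblastic, against 4.11 to 5.42 in the epithelial line and, in the fibroblastic line, 9.69 to 10.56. The gaps to the highest line array, fibroblastic array 2, were 1.25 and 0.71. Against the epithelial line the array labelled epithelial was 7.07 higher (SE 0.51, adjusted p = 0.00011). Against the fibroblastic line the array labelled fibroblastic had a difference of 1.23 (95% confidence interval 0.10 to 2.36, adjusted p = 0.199), which was not called. The array labelled epithelial had a difference of 1.76 from the fibroblastic line (adjusted p = 0.0592), which was called without epithelial array 2 (adjusted p = 0.0409), without epithelial array 3 (adjusted p = 0.0342) or without fibroblastic array 2 (difference 1.93, adjusted p = 0.0477).

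Mmp2, Timp1 and Adamts1 were the other genes called on the array labelled epithelial against its own line. Mmp2 stood at 11.74 on that array and 11.90 on the array labelled fibroblastic, beside 11.82 to 13.51 in the fibroblastic line and 5.09 to 5.28 in the epithelial line. It was 6.58 above the epithelial line (SE 0.67, adjusted p = 0.000771). Timp1 stood at 12.03 and 12.39 on the same arrays, within the fibroblastic range of 11.88 to 12.80, and 3.04 above the epithelial line on the array labelled epithelial (SE 0.39, adjusted p = 0.00277). Against the fibroblastic line, the array labelled fibroblastic differed by -0.76 for Mmp2 (95% confidence interval -2.27 to 0.74, adjusted p = 0.583) and by 0.10 for Timp1 (95% confidence interval -0.77 to 0.98, adjusted p = 0.921). Fibroblastic markers were also higher on the array labelled epithelial: 8 of 12 were called higher than in the epithelial line and none lower (0 also at an unadjusted limma p under 0.05), with a mean of 9.87 on that array and 5.22 to 5.37 in the line. Against the fibroblastic line, 4 of the 12 were called lower on the array labelled fibroblastic and none higher (6 and 0 at an unadjusted limma p under 0.05). Their mean was 10.13 on that array and 11.40 to 11.63 in the fibroblastic line. On the array labelled fibroblastic the mean of the 7 epithelial markers was 12.42, against 4.60 to 5.23 in the fibroblastic line. The mixing of cell types and a change within a cell type cannot be told apart in these values.

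Adamts1 was the gene in which the co-culture arrays differed most from each other, at 7.13 on the array labelled epithelial and 9.31 on the array labelled fibroblastic, against 3.92 to 5.50 in the epithelial line and, in the fibroblastic line, 10.43 to 11.63. Both values lay between the lines. The array labelled epithelial was 2.46 above the epithelial line (SE 0.60, adjusted p = 0.0493), a call at the threshold that was lost without epithelial array 1 or 2 (adjusted p = 0.0826 and 0.102) or without fibroblastic array 1, 3 or 4 (adjusted p = 0.0531, 0.0735 and 0.0817). From the fibroblastic line it differed by -3.92 (adjusted p = 0.00474). The array labelled fibroblastic had a difference of -1.75 from the fibroblastic line (SE 0.58, adjusted p = 0.127).

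Mmp14, Timp2 and Mmp9 were not called on either co-culture array against its own line. Mmp14 stood at 12.17 and 11.95 on the arrays labelled epithelial and fibroblastic, above all 3 epithelial arrays and within the fibroblastic range. Its difference from the epithelial line was 1.60 (95% confidence interval 0.38 to 2.82, adjusted p = 0.117). Timp2 stood at 12.67 and 12.89, between the highest epithelial array at 12.48 and the lowest fibroblastic array at 13.43. Mmp9 stood at 4.16 and 4.18, within the epithelial range of 3.86 to 4.29. Without fibroblastic arrays 1 and 3, the array labelled fibroblastic was also called lower than its line for Mmp2 (-1.55, adjusted p = 0.0065) and Mmp14 (-1.17, adjusted p = 0.0301).

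**Figure D3:**
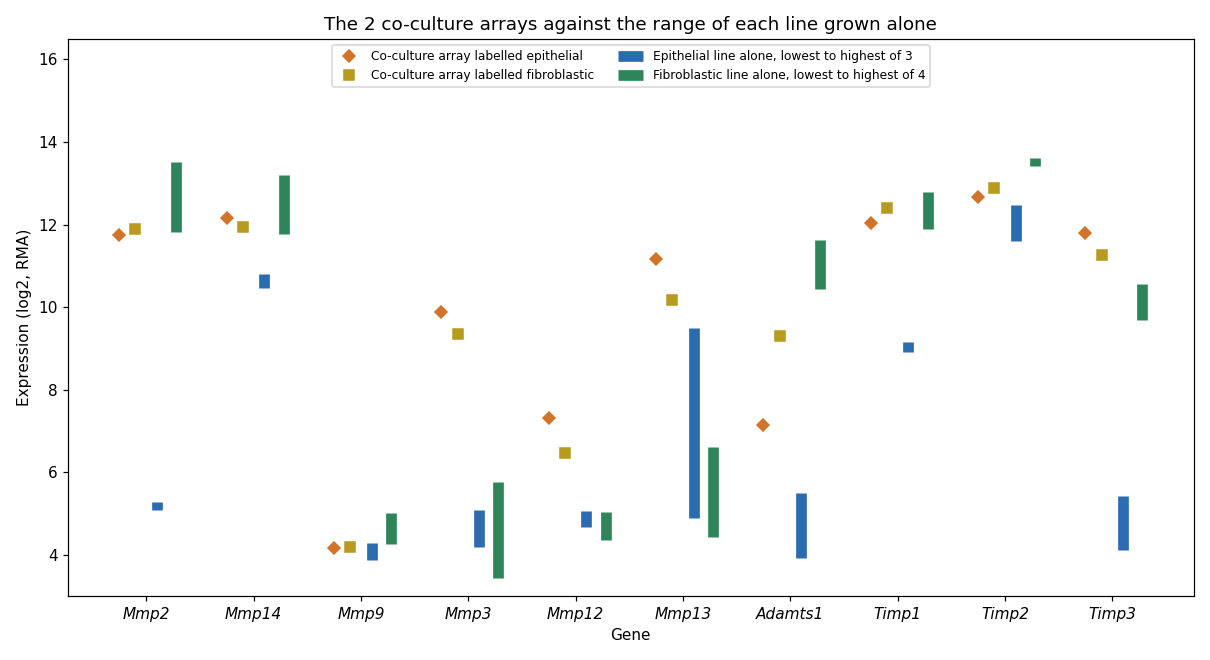
Expression (log2, RMA) of the 10 genes on the array labelled epithelial (diamond) and the array labelled fibroblastic (square) in co-culture, beside bars from the lowest to the highest array of each line alone. The co-culture points for Mmp3 lie 4.13 and 3.60 above the highest bar, while those for Adamts1 lie between the lines.

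The plot of co-culture positions shows how the 10 genes fall into those above both lines, those near the fibroblastic line and those between the lines, apart from Mmp9, which lay within the epithelial range. The change on the array labelled epithelial minus the change on the array labelled fibroblastic was called above 0 for 4 genes and below 0 for none, where 4.66% and 3.76% of all genes were, and the counts at an unadjusted limma p under 0.05 were 6 and 0. They were Mmp2 at 7.34 (SE 0.94, adjusted p = 0.00221), Timp3 at 5.84 (SE 0.70, adjusted p = 0.00164), Adamts1 at 4.21 (SE 0.84, adjusted p = 0.0188) and Timp1 at 2.94 (SE 0.54, adjusted p = 0.0131). This quantity is the fibroblastic minus the epithelial line, plus the array labelled epithelial minus the array labelled fibroblastic. Both arrays held markers of both cell types, so it largely restates the line difference and measures the response of neither cell type. The size of the gap between the co-culture arrays was 0.16 for Mmp2, 0.53 for Timp3, 0.36 for Timp1 and 2.17 for Adamts1. The array labelled epithelial was the higher for Timp3 and the lower for the others, so this gap lowered the value most for Adamts1. For Mmp3 the changes differed by 0.27 (95% confidence interval -2.33 to 2.87, adjusted p = 0.932), and for Mmp12 by 0.65 (95% confidence interval -0.32 to 1.61, adjusted p = 0.441).

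The tumours were also set against the co-culture arrays, in a fit of all 13 arrays that was added after the data were seen. Against the array labelled epithelial, 1 of the 10 genes was called higher and 2 lower (5.46% and 11.5% of all genes), and against the array labelled fibroblastic 1 higher and 4 lower (6.27% and 14.3%). With arrays centred on the median over the genes, all genes split into 1186 higher and 1148 lower in the first comparison, where the deposited values gave 776 and 1634, and into 1587 and 1356 in the second, where they gave 891 and 2028. Mmp12 was higher in the tumours, by 5.23 (SE 0.35, adjusted p = 6.88e-06) and 6.08 (SE 0.35, adjusted p = 2.45e-06). Mmp3 was lower in the tumours, with differences of -5.75 (SE 0.68, adjusted p = 0.000354) and -5.22 (SE 0.68, adjusted p = 0.000533). Its highest tumour value, 4.37, was far below 9.35, the lower of the co-culture values. Timp3 was lower as well, with differences of -3.52 (SE 0.49, adjusted p = 0.000913) and -2.99 (SE 0.49, adjusted p = 0.002). Mmp2 and Adamts1 were called lower than the array labelled fibroblastic only, at -2.08 (adjusted p = 0.0373) and -2.45 (SE 0.54, adjusted p = 0.00971), and no difference between the co-culture arrays was tested for them here. The Mmp2 call was lost without tumour 1, 3 or 4 or without epithelial array 3 (adjusted p = 0.0695, 0.0632, 0.0514 and 0.0501).

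Probe sets of the same gene did not always give the same sign. The further Mmp2 probe set ran from 4.62 to 5.70 over all 13 arrays. Its difference was 0.09 between the lines (limma adjusted p = 0.752) and 0.72 between tumours and the fibroblastic line (adjusted p = 0.00152, called). Both were opposite in sign to the main probe set. The further Timp2 probe set, at 8.92 to 9.80 in the tumours and 8.19 to 8.85 in the fibroblastic line, gave 0.73 for that comparison (adjusted p = 0.0124), also opposite. All 4 Timp3 probe sets were highest on the co-culture arrays. For tumour minus fibroblastic line 1 of the 4 had the opposite sign, at 0.42 (adjusted p = 0.0713). On the array labelled fibroblastic against its line, 2 of the further Timp3 probe sets were called, at 1.17 (adjusted p = 0.0346) and 1.69 (adjusted p = 0.015). For Mmp9 the further probe set was opposite in sign for the array labelled epithelial against its line, at -0.48 (adjusted p = 0.298).

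Other genes of the protease system were taken from 4 lists. Of all genes, 18.9% were called higher and 33.2% lower in the tumours against the epithelial line, and 27.4% and 33.5% against the fibroblastic line. Between the lines 20.9% were higher and 16.6% lower in the epithelial line. In co-culture the shares were 4.87% and 2.37% on the array labelled epithelial, and 4.78% and 3.63% on the array labelled fibroblastic. The medians over all genes were -0.17, -0.07, 0.11, -0.09 and 0.03 in the same order. Where none is given as lower below, limma also gave 0 lower at an unadjusted p under 0.05, unless another count is given. Both co-culture arrays held markers of both cell types. Where a gene lay within or between the ranges of the lines, mixing and a change within a cell type cannot be told apart. Of the 12 other metalloproteinases and Timp4 that were measured, 4 were higher and 1 lower in the tumours against the epithelial line, and 5 higher and 4 lower than in the fibroblastic line. Their medians were 0.48 and 0.12. Mmp7, matrilysin, made mainly by epithelial cells, had values of 9.20, 11.30, 7.92 and 8.14 in the tumours, against 4.99, 4.97 and 6.97 in the epithelial line and, in the fibroblastic line, 4.29 to 4.85. The tumours were above every line array, by 3.49 over the epithelial line (SE 0.75, adjusted p = 0.00308) and 4.52 over the fibroblastic line (SE 0.69, adjusted p = 0.000258). Mmp23 was 1.76 higher in the tumours against the epithelial line (adjusted p = 0.000516) and Mmp24, a membrane-type enzyme, was lower (-1.36, adjusted p = 0.00429). Mmp16, another membrane-type enzyme, and Mmp11, stromelysin-3, were lower in the tumours than in the fibroblastic line, at -5.13 (adjusted p = 2.89e-06) and -4.02 (adjusted p = 0.0027). Mmp11 was split in that line, with 6.84 and 7.68 on arrays 1 and 3 and 11.52 and 10.51 on arrays 2 and 4. The tumours had 4.82 to 5.58, so the size of its difference depends on the pair.

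Between the lines, 2 of these 12 were higher and 3 lower in the epithelial line, with a median of -0.26. Mmp16 (-5.59, adjusted p = 5.80e-05) and Mmp23 (-4.18, adjusted p = 2.52e-05) were lower, and the membrane-type Mmp15 was higher (3.29, adjusted p = 0.000778). In co-culture 2 of the 12 were higher on the array labelled epithelial than in its line and none lower, and 1 was higher and 1 lower on the array labelled fibroblastic than in its line. The 2 were Mmp7 (3.03, adjusted p = 0.0429) and Mmp10, stromelysin-2 (1.13, adjusted p = 0.0139), and the other pair Mmp15 (2.70, adjusted p = 0.0431) and Mmp23 (-4.41, adjusted p = 0.00104). Mmp15 stood at 8.09 on that array, between the fibroblastic line (4.77 to 6.25) and the epithelial line (8.14 to 9.58). Mmp10 was named after its values were seen.

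Of 16 other Adamts and Adam proteases, 7 were higher and none lower in the tumours against the epithelial line (median 0.67), and 5 higher and 6 lower than in the fibroblastic line (median -0.50). Adamts12, Adamts4 and Adamts5 led the first group, at 2.83 (adjusted p = 5.34e-06), 2.17 (adjusted p = 0.0185) and 1.97 (adjusted p = 0.00114). The last of these encodes an aggrecan-cutting enzyme. The membrane-bound Adam8 and Adam9 were higher in the tumours than in the fibroblastic line, at 3.40 (adjusted p = 4.41e-06) and 2.77 (adjusted p = 3.66e-06), while Adamts12 was lower (-2.48, adjusted p = 3.01e-06). Between the lines 2 of the 16 were higher and 7 lower in the epithelial line, among them Adam8 (3.80, adjusted p = 5.36e-05), Adamts12 (-5.31, adjusted p = 1.89e-06) and Adamts4 (-3.65, adjusted p = 0.0067). In co-culture Adamts12 was higher on the array labelled epithelial than in its line (4.01, adjusted p = 0.000518). On the array labelled fibroblastic Adam8 was higher than in its line (3.69, adjusted p = 0.00281) and Adamts12 lower (-2.05, adjusted p = 0.0126). Adam8 stood at 8.78 on that array, within the epithelial range of 8.17 to 9.30. Adamts12 stood at 8.38 and 7.63 on the arrays labelled epithelial and fibroblastic. Both values lay between the epithelial line (4.29 to 4.44) and the fibroblastic line (9.25 to 10.14).

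Of 20 activators, partners and other inhibitors, 9 were higher and 1 lower in the tumours against the epithelial line (median 1.01), and 7 higher and 7 lower than in the fibroblastic line (median 0.32). The collagen chaperone Serpinh1 and the protease inhibitor Serpine2 were 6.55 (adjusted p = 2.06e-08) and 5.83 (adjusted p = 1.08e-06) above the epithelial line. A2m, which encodes alpha-2-macroglobulin, a broad protease inhibitor of plasma, was 5.33 above each line (adjusted p = 0.00172 against the epithelial and 0.000732 against the fibroblastic line). Its values were 11.45, 6.02, 10.04 and 11.14 in the tumours, low in tumour 2, where Alb was low too. Plg, plasminogen, which activates several metalloproteinases once cleaved, was 4.74 above the fibroblastic line (adjusted p = 0.00795), with 11.79, 5.09, 9.70 and 12.48 in the tumours and the same tumour low. The part of liver tissue in these values was not tested. Reck, a membrane-anchored inhibitor of metalloproteinases, was lower in the tumours than in the fibroblastic line (-4.25, adjusted p = 4.98e-06), at 6.47 to 7.14 in the tumours and 10.26 to 11.65 in that line.

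Between the lines 1 of the 20 was higher and 6 lower in the epithelial line, led by Serpine2 (-7.40, adjusted p = 2.79e-06), Serpinh1 (-7.21, adjusted p = 8.07e-07) and Reck (-4.85, adjusted p = 8.73e-05). In co-culture 8 of the 20 were higher on the array labelled epithelial than in its line and none lower (median 1.24). On the array labelled fibroblastic 2 were higher than in its line and 1 lower (median 0.39). Named after their values were seen, the 2 were A2m (3.18, adjusted p = 0.000393) and Lcn2, a lipocalin that binds Mmp9 (2.08, adjusted p = 0.00261), and the lower gene was the integrin Itgb3 (-2.22, adjusted p = 0.0452). A2m and Lcn2 were called on the array labelled epithelial as well, at 2.03 (adjusted p = 0.004) and 1.67 (adjusted p = 0.00905). Lcn2 stood at 6.11 on the array labelled epithelial and 6.47 on the array labelled fibroblastic, against 4.12 to 4.79 over the lines alone.

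Of 14 cathepsins and cystatins, which are lysosomal proteases and their inhibitors, 10 were higher and 1 lower in the tumours against the epithelial line (median 1.20), and 6 higher and 4 lower than in the fibroblastic line (median 0.66). Ctss, cathepsin S of antigen-presenting cells, was 6.11 above the epithelial line (adjusted p = 9.48e-09) and 5.82 above the fibroblastic line (adjusted p = 4.89e-09), at 11.11 to 11.59 in the tumours. Ctsk, cathepsin K, a collagen-cutting enzyme, was 3.70 above the epithelial line (adjusted p = 5.12e-05), while the cystatin Cst6 was lower (-2.28, adjusted p = 0.0121). Ctsz and Ctsc were 5.85 (adjusted p = 2.28e-08) and 5.01 (adjusted p = 4.47e-07) above the fibroblastic line. Between the lines 5 were higher and 7 lower in the epithelial line (median -0.64), among them Ctsz (5.12, adjusted p = 4.17e-06), Ctse (4.15, adjusted p = 1.75e-05) and Ctsk (-4.75, adjusted p = 4.53e-05). In co-culture 3 were higher on the array labelled epithelial and none lower (1 at an unadjusted limma p under 0.05), and 2 were higher and 2 lower on the array labelled fibroblastic, each against its line.

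**Figure D4:**
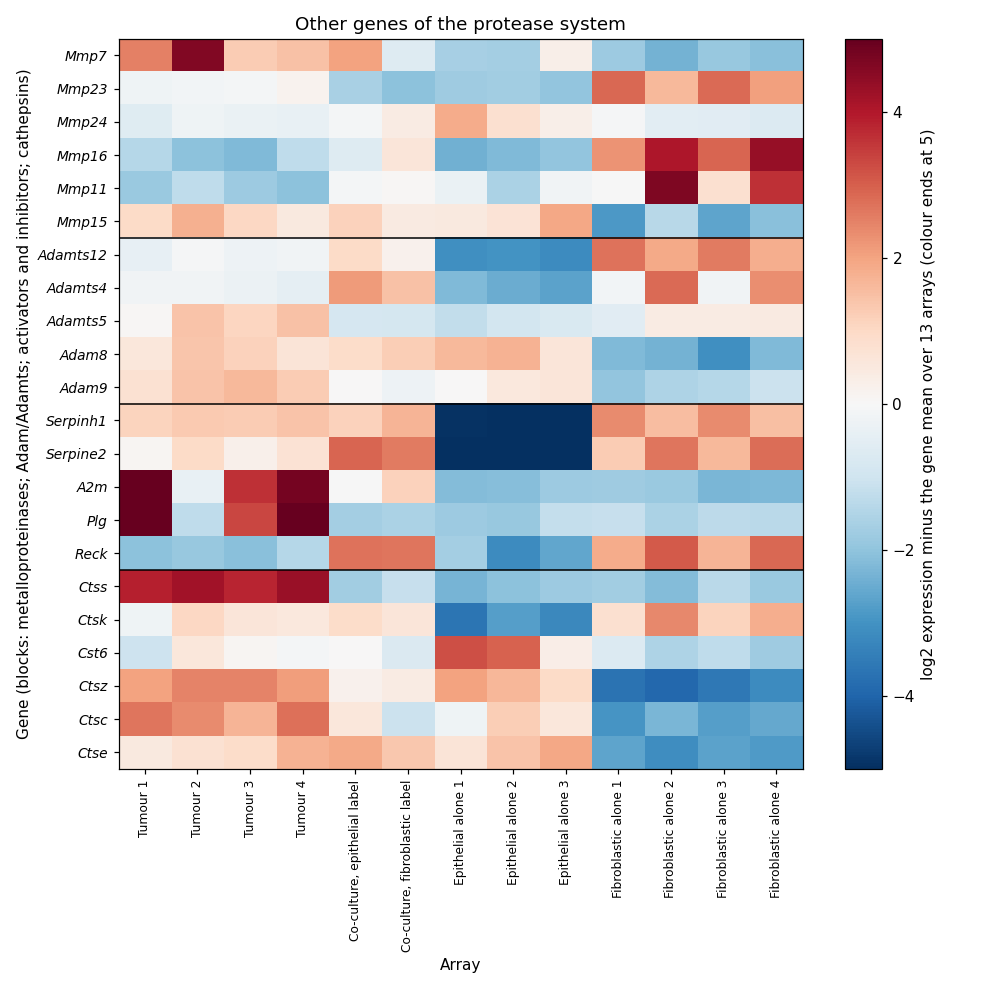
Log2 expression minus the mean of each gene over the 13 arrays, for the named genes of the 4 lists (rows) on each array (columns), with the colour scale ending at 5. Ctss is high in the 4 tumours alone, and A2m and Plg are high in tumours 1, 3 and 4 and low in tumour 2.

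The map of the other protease genes shows these patterns array by array. As a description of pattern, the genes most like each member were ranked by Pearson correlation over the 13 arrays, which share 5 groups, so that r mostly follows the group levels. Mmp12 was most like the macrophage gene Cd68 (r = 0.989), closely followed by Esam (r = 0.985). Timp1 was most like the collagen cross-linking enzyme Lox (r = 0.993), and Mmp2 most like Mxra8 (r = 0.993). Mmp3 was most like Elmod1 (r = 0.957) and Sprr2d (r = 0.955), a small proline-rich protein of epithelia. Mmp13 was most like Aldoc (r = 0.918), Mmp14 most like Washc4 (r = 0.961), Timp2 most like Pip4k2a (r = 0.964), Timp3 most like Hspb8 (r = 0.987), Adamts1 most like Rbms3 (r = 0.984) and Mmp9 most like Gpm6b (r = 0.922). Among the members themselves, Mmp2 was most like Timp3 (r = 0.941) and Mmp3 most like Mmp13 (r = 0.77).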

How the data were processed

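Per the labels' protocols, Trizol total RNA was made into biotin-labelled cRNA for single-colour rat arrays, and the authors computed the values by RMA, per the submitters' processing notes. Neither its version nor which arrays were normalized as a set is stated there. The deposited values were taken as log2 from their range (2.94 to 14.69, array medians 6.15 to 6.25) and not transformed again. Of 31099 probe sets, 57 were controls, 20826 named 1 gene, 436 several and 9780 none, by GEO's platform annotation. Symbols were updated through RefSeq by Entrez identifier (20758) or accession (2), or kept (66).

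Groups were fitted as means with limma 3.58.1 in R 4.3.3, in 11 arrays for tumours against lines, 9 for lines and co-culture, and 13 for tumours against co-culture. Tests were two-sided, tried on simulated data, with no trend and no robust moderation. Alternatives were other fits, normalizations, filters, probe set rules, thresholds, left-out arrays, array weights and the replicate number as a block. The block was not used, because same-numbered arrays of different groups correlated between -0.148 and 0.143 in their deviations. Named from each of the 4 lists were the 3 called genes of largest difference per comparison of replicated groups. Of the 2 genes of highest correlation with each gene, the first or both are named. The 10 genes, lists, markers and tests were chosen with earlier results of these data known. Counts of lists measured and listed were 12 of 18, 16 of 23, 20 of 22 and 14 of 14. Python 3.11.15 (numpy 2.4.6, pandas 2.3.3) wrote the tables, and matplotlib 3.10.9 drew the plots. Promoter sequences are RefSeq's.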

Additional observations from a re-analysis of the deposited data

Results flagged for a closer look

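Mmp9 had 1 fibroblastic array, array 1, far below the other 3, at 4.25 against 4.88 to 5.00. Dixon's test at the 95% level was run on 20 groups of 4 arrays, and chance alone flags about 1 in 20.

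For 4 genes the change on the co-culture array labelled epithelial, against the epithelial line alone, exceeded the change on the array labelled fibroblastic, against the fibroblastic line alone, by limma's test of that difference. The log2 difference between the changes was 7.34 for Mmp2, 5.84 for Timp3, 4.21 for Adamts1 and 2.94 for Timp1. In all 4 the epithelial line alone was the lower of the lines, with differences of -7.50 to -3.29 on the log2 scale. Since both co-culture arrays held markers of both cell types, this value largely restates the difference between the lines and measures the response of neither cell type. For Adamts1 it was also lowered by the gap of 2.17 between the co-culture arrays.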

How the results depend on the processing

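The limits are few arrays, 1 array per co-culture, low signal for Mmp3 and Mmp9, and a shared spread. The 100 differences of the 10 genes were recomputed under each alternative, giving 2130 values. Of these, 1981 kept direction and side of the threshold, 64 lost the call, 47 gained it and 38 changed sign, none of the last called. Causes were not tested.

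Counts of genes called moved as follows. With tumour 2 as the only tumour, 4 were called against the fibroblastic line (7 as reported) and 3 against the array labelled fibroblastic (5). For the array labelled fibroblastic against its line (2), the count was 1 with the genes of lowest expression left out, among them Mmp3 and Mmp9, and 4 without fibroblastic arrays 1 and 3. For the array labelled epithelial against the fibroblastic line (3), it was 5 in a fit of all 13 arrays, 5 with only the groups compared, and 3 to 5 leaving out 1 array. For the tumours against the array labelled epithelial (3), it was 5 with only the groups compared and 5 with array weights. The difference between the co-culture changes (4) gave 2 at adjusted p under 0.01. Leaving out 1 array gave 5 to 7 for tumours against the epithelial line, 7 to 8 against the fibroblastic line, and 6 to 7 between the lines.

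With the replicate number as a block, 5, 8 and 6 of the 10 genes were called in those 3 comparisons, and 6638, 8405 and 4252 of all genes. The replicate numbers do not pair the samples, and the co-culture arrays carry none, so no blocked fit was made for them.

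Values that changed sign on leaving out 1 array are given as the range over all such settings. For Mmp13 it was -0.70 to 1.60 for tumour minus epithelial line (opposite without epithelial array 1 or 3 or tumour 2), -0.17 to 2.14 between the lines, and -1.12 to 1.18 for the difference between the co-culture changes. For Mmp3 it was -0.37 to 0.40 for tumour minus fibroblastic line, -0.03 to 0.76 between the lines, and -0.23 to 0.56 for the difference between the co-culture changes. For Mmp9 it was -0.19 to 0.06 for tumour minus fibroblastic line, and against the epithelial line -0.06 to 0.16 on the array labelled epithelial and -0.03 to 0.19 on the array labelled fibroblastic. For Timp1 it was -0.03 to 0.27 for the array labelled fibroblastic against its line. Array weights gave -0.03 for Mmp13, tumour minus epithelial line, and 0.03 for Mmp3, tumour minus fibroblastic line. Centring gave 0.08 for Mmp3 (on genes) and 0.02 and 0.16 for Mmp9 (on probe sets and genes), tumour minus fibroblastic line. Without fibroblastic arrays 2 and 4, Mmp9 gave 0.15 for tumour minus fibroblastic line, Mmp3 -0.10 between the lines, Mmp2 0.02 and Timp1 -0.30 for the array labelled fibroblastic against its line, and Mmp14 0.17 for the array labelled epithelial against the fibroblastic line. Without fibroblastic arrays 1 and 3, Mmp3 gave 0.25 for tumour minus fibroblastic line, Timp1 0.15 for the array labelled epithelial against the fibroblastic line, and the difference between the co-culture changes 0.67 for Mmp13 and -0.09 for Mmp3. The mean of the probe sets gave -0.21 and -0.01 for Mmp9 on the arrays labelled epithelial and fibroblastic against the epithelial line, and 0.42 and 0.40 for Timp2 in the tumours minus those arrays. Tumour 2 alone gave 0.15 for Adamts1 minus the array labelled epithelial.

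Several calls depended on the probe sets. With the mean of its probe sets, Timp2 was called for tumours against the epithelial line (1.20, limma adjusted p = 0.000283) and lost against the fibroblastic line (-0.20, adjusted p = 0.292). By the same rule the calls for tumours against the epithelial line were lost for Mmp14 (0.5, adjusted p = 0.177) and Mmp9 (0.38, adjusted p = 0.0555). Timp3 was called for the array labelled fibroblastic against its line (1.32, adjusted p = 0.0221). Between the lines 6 of the 10 genes were called (7 as reported). Centring on genes moved the median of all genes from -0.17 to 0.03 for tumours minus epithelial line.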

Other observations

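The endothelial and lymphocyte markers were not used beside any gene above. Of 7 endothelial markers, 6 were called higher in the tumours than in each line, and of 7 markers of T, B and NK cells, 6 were called higher against each line. The shares of all genes called higher were 18.9% against the epithelial line and 27.4% against the fibroblastic line. In co-culture none of either list was called on either array by limma, and at an unadjusted p under 0.05 a single endothelial marker passed, on the array labelled fibroblastic. S100a9, a calcium-binding protein of neutrophils and of stressed epithelium, stood at 13.42 on the array labelled epithelial and 11.50 on the array labelled fibroblastic, against 7.36, 9.80 and 10.53 in the epithelial cells alone and 4.15 to 4.67 in the fibroblastic cells alone. It was singled out after its values were seen. In the tumours it stood at 9.63 to 10.85. It was called on the array labelled epithelial against its line (4.19, adjusted p = 0.0443) and on the array labelled fibroblastic against its line (7.04, adjusted p = 0.00377).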
